A study of Homo sapiens with 6 samples.

Results

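Aminoacyl-tRNA synthetases are the enzymes that join each amino acid to its transfer RNA, the step that supplies ribosomes with charged tRNA. The 37 members taken here were 19 genes of cytosolic enzymes, 16 genes of mitochondrial enzymes and 2 genes, AIMP1 and AIMP2, of scaffold proteins. A member was measured by every probe set of the array that the platform annotation gives to it alone, and 33 of the 37 had at least 1 such probe set, among 19775 genes measured in this way. Of these 33, 31 were bright enough to test, which were 17 cytosolic enzymes, 13 mitochondrial enzymes and AIMP1. MARS2 and SARS2 had a mean under 4 on the log2 scale, the limit for testing, and MARS1, QARS1, TARS2 and AIMP2 had no probe set of their own analysed here.

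RNA was measured on 6 one-colour Affymetrix arrays of U87-EV tumours, 3 after bevacizumab and 3 saline controls. U87 is a human glioblastoma cell line, what EV stands for is not given in the labels, and the cells had been placed under the skin of female BALB/c SCID mice aged 6 to 8 weeks together with Matrigel. Bevacizumab, an antibody against the human growth factor VEGFA, was given into the peritoneum at 10 mg/kg with 3 days between doses, from a tumour volume of 150 to 200 mm3 until the tumours measured about 15 to 30 mm across. Each group began with 5 mice, but the labels do not tie an array to a mouse or give the number of days on treatment, so the spread between arrays behind each p-value may be partly technical. All tumours came from 1 cell line. The probes are human, and host RNA could not be set apart on them. In bulk tumours, fewer cells of a type and less RNA per cell cannot be told apart.

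As background, human cells hold separate sets of synthetases for the cytosol and for mitochondria, mostly from different genes, written with a 1 and a 2 at the end of the symbol. GARS1 and KARS1 are exceptions, since each gives both forms. Several cytosolic enzymes sit with the AIMP scaffold proteins in a multisynthetase complex, while others work alone or as dimers. Many cytosolic synthetase genes are known targets of ATF4, the transcription factor of the integrated stress response, which is made when amino acids or oxygen run short or unfolded protein builds up.

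After bevacizumab no synthetase gene was called higher, and 6 of the 31 tested were called lower. The 6 were the cytosolic enzymes for asparagine (NARS1), phenylalanine (the beta subunit, FARSB), serine (SARS1), histidine (HARS1) and arginine (RARS1), and the mitochondrial enzyme for leucine (LARS2). The declines were moderate, to between 64.4% and 78.5% of the control level. A call means an adjusted p under 0.05 in limma's test over 10233 genes, of which 9.97% were called lower and 9.09% higher. Among the cytosolic enzymes 5 of 17, or 29.4%, were lower, and among the mitochondrial enzymes 1 of 13, or 7.69%. The difference between these shares was not tested. The median log2 fold change, bevacizumab minus control, was -0.17 for cytosolic and -0.11 for mitochondrial enzymes, against -0.01 for all genes tested. The fold change was negative in 22 of the 31 members and in 51.4% of all genes tested. In 11 of the 31 members all bevacizumab arrays lay under all controls, 8 of them cytosolic and 3 mitochondrial, and in none did they all lie over them. Over all genes tested these shares were 22.0% and 19.0%.

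**Figure D1:**
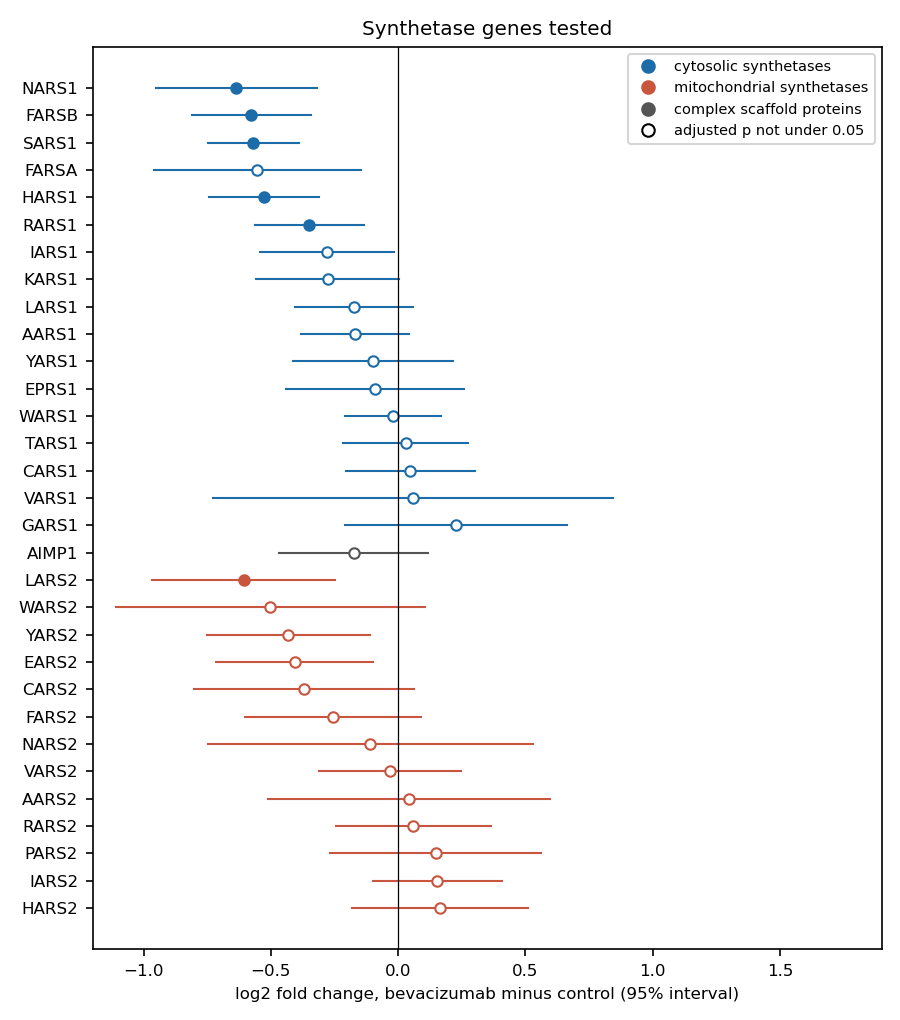
Log2 fold change (bevacizumab minus control, x axis) of each of the 31 members tested, with its 95% interval from limma. Filled points have an adjusted p under 0.05: NARS1, FARSB, SARS1, HARS1 and RARS1 among cytosolic enzymes and LARS2 among mitochondrial enzymes, all to the left of 0.

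SARS1, which charges the serine tRNAs and also those for selenocysteine, had the tightest values. It read 11.17, 11.16 and 11.15 on bevacizumab arrays 1, 2 and 3, against 11.72, 11.72 and 11.74 on controls 1, 2 and 3. The groups lay far apart compared with their spread, and the change was -0.57 (SE 0.07, limma adjusted p = 0.00719). SARS1 stayed past the threshold whichever of the 6 arrays was omitted. FARSB, which with FARSA forms the cytosolic phenylalanine enzyme, read 10.17, 9.95 and 10.07 after bevacizumab, against 10.56, 10.69 and 10.68 in controls. The change was -0.58 (SE 0.10, limma adjusted p = 0.0137), with an adjusted p of 0.0598 without control 2. On its brightest probe set the catalytic partner FARSA had a difference of nearly the same size, -0.55. The interval was wider, -0.96 to -0.14, with a limma adjusted p of 0.0687. There, too, all bevacizumab arrays (7.73, 7.51 and 7.95) lay under all controls (8.56, 8.10 and 8.19). FARSA's other probe set, 202159_at, was nearly as bright and had a smaller change of -0.22, also without overlap (limma adjusted p = 0.128 in the fit over all probe sets).

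HARS1, the cytosolic histidine enzyme, read 9.66, 9.62 and 9.51 after bevacizumab, against 10.20, 10.13 and 10.05 in controls. The groups did not overlap, and HARS1 changed by -0.53 (SE 0.09, limma adjusted p = 0.0141). The call was lost without control 1 (adjusted p = 0.0618) or control 2 (adjusted p = 0.0594). NARS1, the asparagine enzyme, read 11.995, 11.81 and 11.61 after bevacizumab, against 12.32, 12.42 and 12.58 in controls. At -0.63 (SE 0.13, limma adjusted p = 0.0243) it had the lowest fold change of the cytosolic members, and it was no longer called without bevacizumab 2 or without any 1 of the controls (adjusted p between 0.065 and 0.0811). RARS1, the arginine enzyme of the multisynthetase complex, read 11.54, 11.57 and 11.45 after bevacizumab, against 11.78, 11.95 and 11.88 in controls. Its change was smaller, at -0.35 (SE 0.09, limma adjusted p = 0.0418), and its call was lost whichever of the 6 arrays was left out (adjusted p between 0.0662 and 0.132). LARS2, the mitochondrial leucine enzyme, read 8.24, 8.06 and 7.76 after bevacizumab, against 8.50, 8.61 and 8.77 in controls. The LARS2 difference of -0.61 (SE 0.15, limma adjusted p = 0.0379) passed in 1 of the 6 fits that omitted an array, the one without bevacizumab 1, and had an adjusted p between 0.0616 and 0.112 in the others. With the mean of its probe sets LARS2 had an adjusted p of 0.0614. When dim genes were kept in the fit, NARS1, RARS1 and LARS2 missed the threshold (limma adjusted p = 0.0956, 0.0672 and 0.144), while SARS1, FARSB and HARS1 passed.

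**Figure D2:**
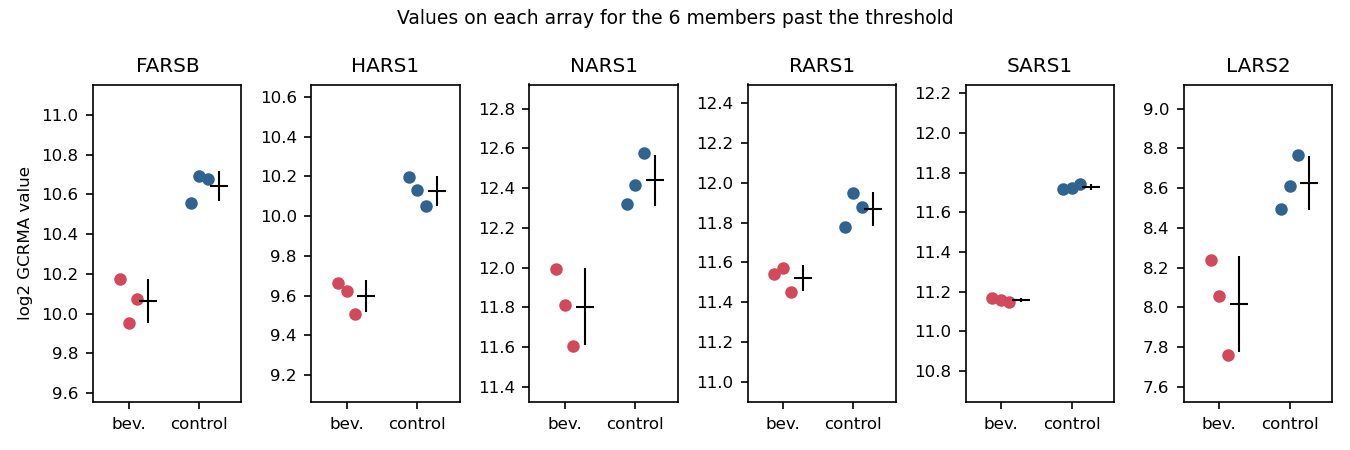
Log2 GCRMA value of each array (points, y axis) for the 6 members past the threshold, with bevacizumab on the left and control on the right of each panel, and mean ± SD of 3 arrays as a bar beside the points. Each panel spans the same range of log2 units; in all 6 panels the bevacizumab points lie under the control points, and those of SARS1 are the most tightly grouped.

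The count of cytosolic enzymes called lower was 4, 3 and 4 without bevacizumab 1, 2 or 3, and 2, 1 and 3 without control 1, 2 or 3. The share of all genes called lower fell in those fits as well, to 9.18%, 4.97% and 7.24% without a bevacizumab array and to 2.64%, 2.55% and 3.7% without a control. The ACTB control probe sets have a 3' minus 5' difference that grows as RNA degrades. It was 1.81 ± 0.16 after bevacizumab and 1.38 ± 0.26 in controls (mean ± SD, n = 3 each), with overlapping groups. The groups differed by 0.43 (exact permutation p = 0.2, with 0.1 the smallest possible). For GAPDH the groups differed by 0.10 and did not overlap (exact permutation p = 0.1). With the ACTB value as a covariate no member and 24 genes in all passed limma's threshold, while the cytosolic median was -0.28 and the mitochondrial median -0.15.

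The remaining cytosolic enzymes were not called, and most of them had a negative fold change. IARS1 (-0.28) and KARS1 (-0.28), which charge isoleucine and lysine tRNAs within the complex, had limma adjusted p-values of 0.121 and 0.145. LARS1 (-0.17), AARS1 (-0.17), YARS1 (-0.10), EPRS1 (-0.09) and WARS1 (-0.02) lay closer to 0. In IARS1 and AARS1 all bevacizumab arrays lay under all controls. TARS1 (0.03), CARS1 (0.05), VARS1 (0.06) and GARS1 (0.23) were on the positive side, and none of these passed. GARS1, the glycine enzyme for both compartments, varied among the treated tumours, with 11.31, 11.67 and 11.99 on bevacizumab 1, 2 and 3, against 11.50, 11.33 and 11.46 in controls. Its 95% interval ran from -0.21 to 0.66, so neither a small decline nor a rise of that size could be told from no change. VARS1, the valine enzyme, had the widest interval of the cytosolic members, -0.73 to 0.84, with 5.79 on bevacizumab 1 against 6.998 and 6.85 on the other treated arrays. The dimmer VARS1 probe set, 201796_s_at, had a change of -0.41 with overlapping groups (limma adjusted p = 0.118 in the fit over all probe sets).

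Calls were made both within the multisynthetase complex and outside it, and the difference between these groups was not tested. Of the 6 complex members tested (EPRS1, IARS1, KARS1, LARS1, RARS1 and AIMP1) all had a negative fold change, 1 was called lower and the median was -0.23. Of the 12 cytosolic enzymes outside the complex, 8 were negative, 4 were called lower and the median was -0.13. The shares lower were 16.7% within the complex and 33.3% outside it, against 9.97% of all genes tested. AIMP1, a scaffold protein that is also released from cells as a cytokine precursor, had a fold change of -0.18 (limma adjusted p = 0.339) with overlapping groups.

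Among the mitochondrial enzymes YARS2 (-0.43, limma adjusted p = 0.0696) and EARS2 (-0.41, limma adjusted p = 0.0729) came closest to the threshold after LARS2. EARS2 supplies glutamate both for its own tRNA and for the glutamine tRNA of mitochondria. It read 7.44, 7.53 and 7.18 after bevacizumab, against 7.71, 7.73 and 7.93 in controls, and YARS2 read 9.17, 8.89 and 9.12, against 9.32, 9.48 and 9.67. Neither gene's groups overlapped. WARS2 (-0.50), CARS2 (-0.37), FARS2 (-0.26), NARS2 (-0.11) and VARS2 (-0.03) did not pass. In NARS2 and WARS2 bevacizumab 3 stood apart: it read 6.07 and 5.97, while the other treated arrays read 7.11 and 6.87 for NARS2 and 6.96 and 6.66 for WARS2. AARS2 (0.04), RARS2 (0.06), PARS2 (0.15), IARS2 (0.15) and HARS2 (0.16) were on the positive side without a call.

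The cytosolic and the mitochondrial enzyme for the same amino acid were then set side by side. In 11 pairs both genes were tested, and the cytosolic change was below the mitochondrial one in 6 and above it in 5. The pair furthest apart was the histidine pair, with -0.53 for HARS1 and 0.16 for HARS2, a difference between the changes of -0.69. The arginine pair also had the lower value in the cytosol (-0.35 for RARS1, 0.06 for RARS2; difference -0.41). The tryptophan, leucine and tyrosine pairs ran the other way, with differences of 0.48, 0.43 and 0.33. These 5 pairs had an exact two-sided permutation p of 0.1, the smallest that 3 arrays against 3 can give, and the other 6 had larger values. After Benjamini-Hochberg adjustment over the 11 pairs the smallest p was 0.22. No pair could have passed 0.05 with this number of arrays, so the pairs are a description.

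**Figure D3:**
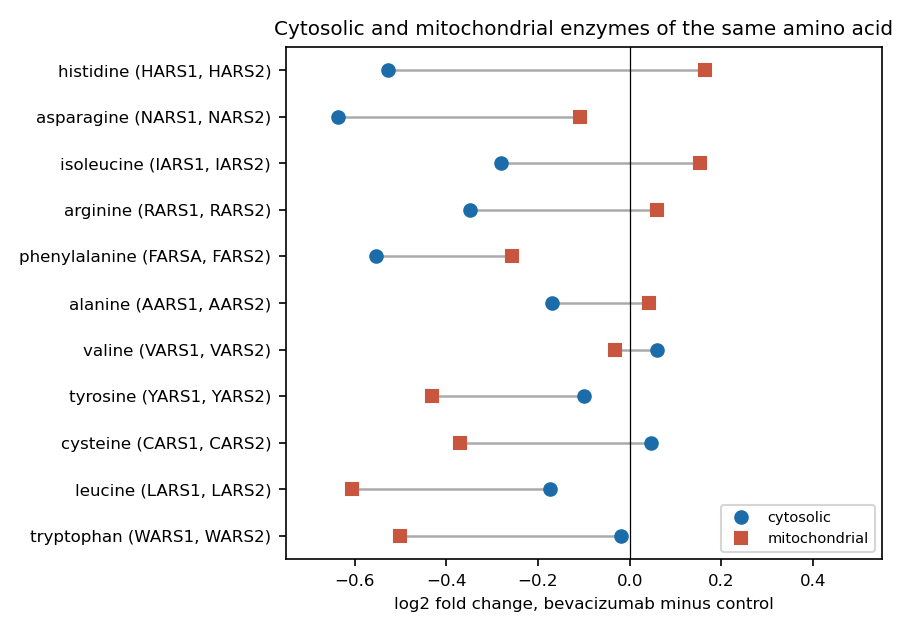
Log2 fold change (bevacizumab minus control, x axis) of the cytosolic enzyme (circle) and the mitochondrial enzyme (square) for each of 11 amino acids, ordered by the difference between the changes. The circle lies to the left of the square in 6 pairs, most clearly for histidine, and to the right of it in 5.

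The histidine pair is shown by sequence because HARS1 and HARS2 are neighbours that face away from each other and share the DNA between their starts. In RefSeq's promoter windows (GRCh38.p14, 250 bases before to 50 bases after a start) the overlap of both windows is chr5:140691321-140691504, printed on the plus strand. Capitals mark the 84 bases between the starts, with HARS1 read leftwards from them and HARS2 rightwards.
HARS1 and HARS2: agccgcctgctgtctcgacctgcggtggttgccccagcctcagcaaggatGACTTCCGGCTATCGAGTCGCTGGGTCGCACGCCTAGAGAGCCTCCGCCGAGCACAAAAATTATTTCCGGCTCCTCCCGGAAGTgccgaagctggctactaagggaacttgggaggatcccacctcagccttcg
HARS2 read 7.63, 7.79 and 7.56 after bevacizumab, against 7.24, 7.55 and 7.70 in controls. The groups overlapped in HARS2 and were apart in HARS1, although the difference between the pair's changes had an adjusted exact permutation p of 0.22.

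Several genes were read by more than 1 probe set, and these did not always move together. Over 18475 probe sets tested in the same way, 7.96% were lower and 7.43% higher. Of 53 member probe sets 9 were lower, or 17%, in 9 genes, and none was higher. Besides FARSB, HARS1, NARS1, SARS1 and LARS2, these were probe sets of LARS1, EPRS1, CARS1 and EARS2 that were not the brightest of their gene. RARS1 narrowly missed in this larger fit, with an adjusted p of 0.0519. The count of member probe sets past the threshold was 1 without control 1, and 3 without bevacizumab 2, control 2 or control 3.

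The widest disagreement was in LARS1, the leucine enzyme that also signals leucine to mTORC1. Probe set 223888_s_at read 6.32, 6.09 and 6.14 after bevacizumab, against 7.23, 7.18 and 7.34 in controls, which is a difference of -1.07 (SE 0.10, limma adjusted p = 0.00493). The brightest, 222428_s_at, had -0.17, 222427_s_at had -0.27 and 217810_x_at had 0.12, none past the threshold. In EPRS1, whose protein charges both glutamate and proline tRNAs, 200841_s_at read 8.32, 8.00 and 8.24 after bevacizumab, against 9.15, 8.77 and 9.08 in controls (difference -0.82, SE 0.15, limma adjusted p = 0.0198). Its brighter partners 200843_s_at and 200842_s_at had -0.26 and -0.09. In CARS1, the cysteine enzyme, 240983_s_at was lower (-0.39, limma adjusted p = 0.0494), while 212971_at and 202402_s_at had 0.05 and 0.06. WARS1, the tryptophan enzyme that interferon is known to induce, was the one gene with a probe set above all controls: 200629_at read 9.39, 9.42 and 9.59 after bevacizumab, against 9.10, 9.02 and 9.23 in controls (0.35, limma adjusted p = 0.0746). FARSB had a dim second probe set with overlapping groups (0.16) and another, 223036_at, that was under 4 on every array. The mean of its probe sets, which takes in both of these, changed by -0.12 (limma adjusted p = 0.624). Which part of the transcript each probe set reads was not used here.

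**Figure D4:**
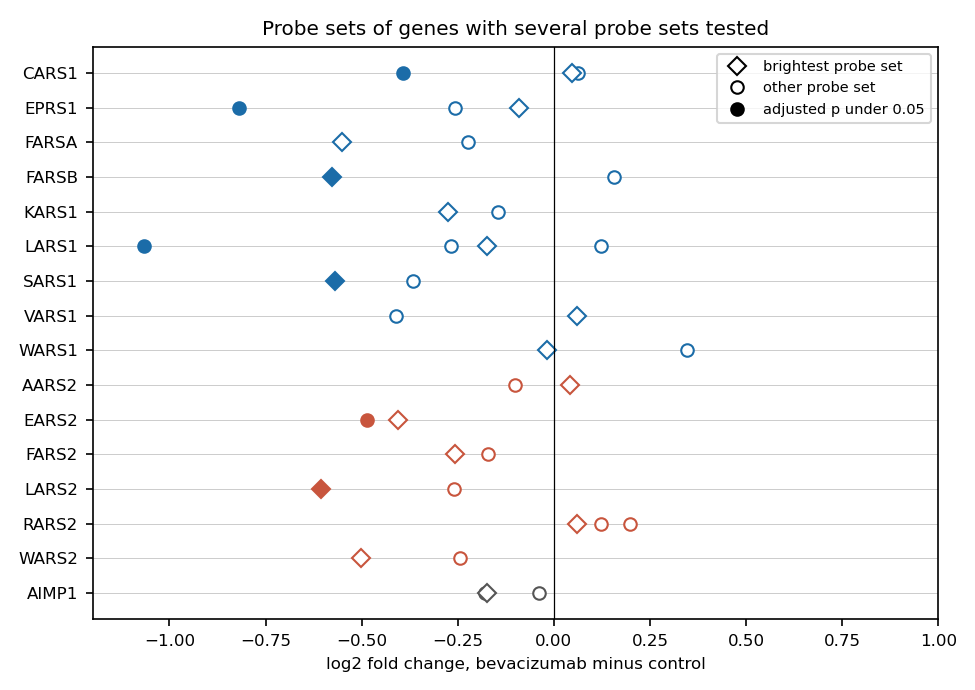
Log2 fold change (bevacizumab minus control, x axis) of each probe set with a mean of at least 4, for the 16 members with over 1 such probe set; diamonds are the brightest probe set of the gene, circles the others, and filled symbols have an adjusted p under 0.05. LARS1 spans -1.07 to 0.12, and in LARS1, EPRS1, CARS1 and EARS2 the filled symbol is not the brightest probe set.

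The cytosolic enzymes were then divided by whether they are known, as background, to respond to ATF4. ATF4 acts on genes through a composite site with a core of TGATGNAA, where N is any base. Promoter windows of 300 bases were searched for it on both strands, that is for TGATGNAA or TTNCATCA, and the site was present in 4.46% of the 27305 genes with a window (3.62% of 35116 windows). Of the 12 cytosolic genes listed as ATF4-responsive, 10 had a window and 7 of those held the site. None of the 6 other cytosolic genes with a window held it, and among mitochondrial enzymes 1 of 14 did. The list was drawn from knowledge that these genes are ATF4 targets, so the match is a description and not independent evidence. The sites are printed with 16 bases on either side, on the strand of the gene and in GRCh38.p14 coordinates from RefSeq, and capitals mark the core. They are shown for every member found to hold one, and YARS2 among them is a mitochondrial enzyme outside the ATF4-responsive list.
AARS1, chr16:70289670-70289709, minus strand: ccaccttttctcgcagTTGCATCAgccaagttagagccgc
CARS1, chr11:3057402-3057441, minus strand: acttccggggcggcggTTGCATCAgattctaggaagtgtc
GARS1, chr7:30594829-30594868, plus strand: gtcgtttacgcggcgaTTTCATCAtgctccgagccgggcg
IARS1, chr9:92293687-92293726, minus strand: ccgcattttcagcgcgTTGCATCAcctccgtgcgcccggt
MARS1, chr12:57488048-57488087, plus strand: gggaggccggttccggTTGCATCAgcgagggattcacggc
NARS1, chr18:57621799-57621838, minus strand: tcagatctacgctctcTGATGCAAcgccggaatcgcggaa
TARS1, chr5:33440951-33440990, plus strand: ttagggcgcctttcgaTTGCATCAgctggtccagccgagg
YARS2, chr12:32756071-32756110, minus strand: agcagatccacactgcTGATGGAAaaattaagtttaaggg
Of these 8 genes, 7 were tested. NARS1 was lower, and the other 6 ran from -0.43 (YARS2) to 0.23 (GARS1) with no call. A match does not show that the site is used, and genes without one can hold it outside the window.

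ATF4 RNA itself was higher after bevacizumab. It read 11.96, 11.96 and 12.16 on bevacizumab arrays, against 11.36, 11.55 and 11.39 in controls, a rise of 0.59 on the log2 scale (SE 0.10, limma adjusted p = 0.0148). The call was lost without control 1 (adjusted p = 0.0634) or control 3 (adjusted p = 0.054). Of 23 integrated stress response genes in the list used, 9 were higher, 3 were lower and the median was 0.44. The shares higher and lower were 39.1% and 13%, against 9.09% and 9.97% of all genes tested. Of the 9 called higher, 8 had a promoter window and 2 of those held the ATF4 site. DDIT3, encoding the stress factor CHOP, rose by 1.41 (limma adjusted p = 0.013, and 0.0518 without control 3), the kinase-like gene TRIB3 by 1.14 and the stress factor gene ATF3 by 4.19. For ATF3 this is the brightest of 2 probe sets, of which 1 was called higher, and their mean rose by 2.06 (limma adjusted p = 0.0121). The eIF2alpha phosphatase subunit gene PPP1R15A rose by 2.10 (adjusted p = 0.0559 without control 2) and the lipoprotein receptor gene VLDLR by 1.41. With dim genes kept in the fit, ATF4, DDIT3, ATF3, TRIB3 and PPP1R15A missed the threshold (limma adjusted p between 0.0512 and 0.0788) and VLDLR passed. The genes that fell were PSAT1, PHGDH and SHMT2, all enzymes of serine and glycine synthesis, with log2 fold changes of -0.56, -0.90 and -0.36. Their limma adjusted p-values were 0.0127, 0.0134 and 0.0404, and SHMT2 was lower on 1 of its 3 probe sets tested. These genes were named after their values were seen, and their calls were not followed in the alternative fits. ASNS, the asparagine synthetase that is a standard ATF4 target, had a fold change of -0.36 (limma adjusted p = 0.175).

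Beside these, the 11 tested ATF4-responsive synthetases had 2 lower (NARS1 and SARS1), none higher and a median of -0.10, with a range from -0.63 to 0.23. The 6 other cytosolic enzymes had 3 lower (FARSB, HARS1 and RARS1), none higher and a median of -0.44. Called lower were 18.2% of the ATF4-responsive and 50% of the other enzymes, against 9.97% of all genes tested. With each gene set to its mean over the 6 arrays, the median deviation of the stress response list was 0.15, 0.14 and 0.36 on the bevacizumab arrays, against -0.25, -0.26 and -0.23 in controls. For the ATF4-responsive synthetases it was -0.02, -0.13 and -0.06 after bevacizumab, against 0.03, 0.05 and 0.12 in controls. The stress response list thus lay higher on all treated arrays, while the ATF4-responsive synthetases lay slightly lower on them. The difference between the lists was not tested.

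**Figure D5:**
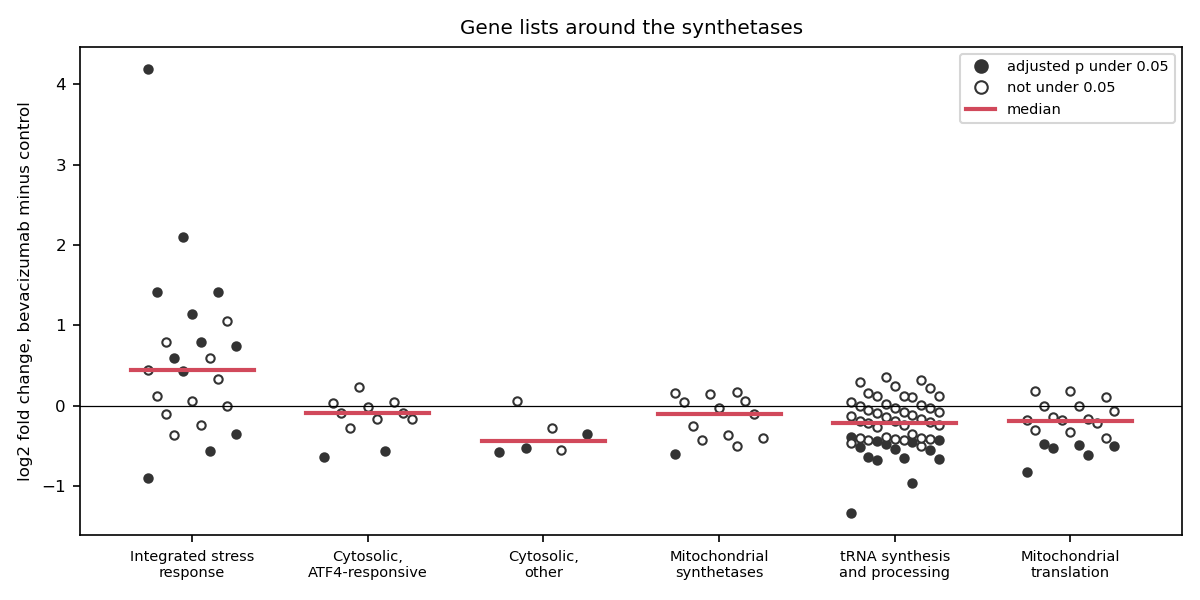
Log2 fold change (bevacizumab minus control, y axis) of each tested gene in 6 lists, with filled points for an adjusted p under 0.05 and a red bar at the median. The median is 0.44 for integrated stress response genes, -0.10 and -0.44 for ATF4-responsive and other cytosolic synthetases, -0.11 for mitochondrial synthetases, -0.22 for tRNA synthesis and processing and -0.20 for mitochondrial translation.

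Genes that make and mature tRNA were lower where they changed. Of 55 tested, 14 were lower and none higher, a share of 25.5% against 9.97% of all genes tested, with a median of -0.22. POLR3K, a subunit of RNA polymerase III, which transcribes tRNA genes, fell by 1.34 (limma adjusted p = 0.00259). TSEN15, part of the endonuclease that removes tRNA introns, fell by 0.96 on its brightest probe set and was called lower on 3 of its 3 probe sets. POP5, a subunit of the RNase that trims the 5' end, fell by 0.67, and ELAC2, the RNase that trims the 3' end, by 0.56. These 4 calls held whichever array was omitted. XPOT, the exporter that carries tRNA out of the nucleus and another known ATF4 target, had a fold change of 0.12 (limma adjusted p = 0.343).

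Of 20 mitochondrial translation factors and tRNA enzymes tested, 6 were lower and none higher, with a median of -0.20. The share lower was 30%, against 9.97% of all genes tested. QRSL1, which turns glutamate charged on the glutamine tRNA into glutamine, fell by 0.61 on its brightest probe set (limma adjusted p = 0.00671), a call held in all 6 fits without an array, and was called lower on 3 of its 3 probe sets. MTFMT, which adds the formyl group to the initiator tRNA, fell by 0.53 (limma adjusted p = 0.0178). The MTFMT call was lost without control 1 (adjusted p = 0.0675) or control 2 (adjusted p = 0.0687), and with dim genes kept (0.0514). HSD17B10, a subunit of the mitochondrial RNase that releases tRNAs from longer transcripts, fell by 0.49, and TFB2M, a mitochondrial transcription factor, by 0.51. Both calls were lost without any 1 of the controls and with dim genes kept. The TFB2M call was also lost without bevacizumab 2 and with the mean of its probe sets (limma adjusted p between 0.0556 and 0.231 in all these fits). Only 1 probe set of TFB2M was bright enough to test, so that mean also holds dim ones. Of 8 cytosolic elongation and termination factors tested, 3 (37.5%, against 9.97% of all genes) were lower and none higher, with a median of -0.20. The ribosome recycling factor gene ABCE1 fell by 0.55 and the release factor gene GSPT1 by 0.48, each no longer called without any 1 of the controls (adjusted p between 0.0517 and 0.0702). EIF5A fell by 1.53 on its brightest probe set (limma adjusted p = 0.0492), a call lost without any 1 of bevacizumab 1, 2 or 3 or control 1 or 2 (adjusted p between 0.095 and 0.151) and made on none of its 3 probe sets in the fit of probe sets. With dim genes kept EIF5A had an adjusted p of 0.215, and with the mean of its probe sets a change of -0.70 (limma adjusted p = 0.0603). GSPT1 was lower on 2 of its 6 probe sets tested, and their mean changed by -0.31 (limma adjusted p = 0.0978). EEF1E1, the third scaffold protein of the multisynthetase complex, had no probe set of its own analysed here.

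Over the whole array set, profiles correlated at 0.992 to 0.997 within groups and at 0.986 to 0.993 between them (Pearson, across probe sets, which are not independent replicates). Of the 9 U87 and glioblastoma markers measured, VIM, CD44, TNC, NES and CHI3L1 were above the filter, NES lower and CHI3L1 higher after bevacizumab, and the glial markers GFAP, OLIG2, SOX2 and S100B had means under 4. CHI3L1 lost its call without bevacizumab 2 or control 1 or 2 (adjusted p between 0.0554 and 0.0711), and with dim genes kept (0.101). Of 8 mural cell markers 3 were lower (RGS5, ACTA2 and KCNJ8) and 5 were not called, and 3 of the 8 had a positive fold change. KCNJ8 read 2.78, 3.52 and 3.13 after bevacizumab, all under 4, against 5.37, 6.15 and 5.47 in controls. It thus passed the filter only through the controls, and the size of its change is uncertain. The mural cell markers had a summed level of 11.8 to 12.1 after bevacizumab, against 13.1 to 13.4 in controls, on the log2 scale. Sums were taken over linear values, so the brightest marker of a list, here ACTA2, weighs most. Of 8 fibroblast markers 5 had a positive fold change, and COL3A1 was the only one called, as lower. It was no longer called without bevacizumab 3 or any 1 of the controls (adjusted p between 0.0579 and 0.0918), or with dim genes kept (0.118). The fibroblast markers had a summed level of 16.3 to 16.6 against 16.6 to 16.8. Of 8 endothelial markers 6, of 7 macrophage markers 6 and of 7 neutrophil markers all 7 were under 4 on every array. The host cells are of the mouse and the probes are human, so low values do not show that such cells were few. Whether the mural cell and fibroblast markers were read from human tumour cells or from host cells was not tested. The neutrophil sum holds only values under 4 and is no measure of cells. Summed levels were 7.33 to 7.59, against 7.28 to 7.39, for endothelial markers, 6.01 to 6.05, against 6.05 to 6.20, for macrophage markers, and 5.05 to 5.06, against 5.04 to 5.10, for neutrophil markers. For the glioblastoma and U87 markers the summed level was 16.15 to 16.22 after bevacizumab, against 15.98 to 16.01 in controls. The part of other cell types and of RNA quality in the synthetase values was not tested.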

How the data were processed

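The deposited table holds log2 expression values that the authors made with GCRMA, which corrects background, normalizes arrays against each other and summarises probe sets. GCOS 1.1.1.052 and GCRMA are the tools listed per the submitters' processing notes. The log2 scale was inferred from the values, and no scanner files, dates or batches were used here. Probe sets were named through the platform annotation, with symbols updated from RefSeq by gene identifier for 41043 of 41097 probe sets with 1 gene. The brightest probe set (mean over 6 arrays) stood for a gene, and means of at least 4 were required. The test was that of limma 3.58.1, run in R 4.3.3 (lmFit, eBayes, no covariate, two-sided), with Benjamini-Hochberg adjustment over all 10233 genes, or over 18475 probe sets in the fit of probe sets. The procedure was tested on simulated data. All tested members are given, and other genes were named by a rule: the smallest p-values among those past the threshold in each list, plus 8 genes fixed by name. Outside this rule, PSAT1, PHGDH and SHMT2 and the glioblastoma markers other than NES and CHI3L1 were named after their values were seen. Members, lists, pairs and the promoter search were chosen with earlier results of these data known. Alternatives were other filters, probe set averaging, quantile normalization, a floor of 4, limma trend, a replicate block, the ACTB covariate and leaving out each array. Probe set averaging took in every probe set of a gene, also those under 4. The number of arrays limits the precision.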

Additional observations from a re-analysis of the deposited data

How the results depend on the processing

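Counts of members higher were 0 for both compartments under every alternative run. The 6 members called lower kept their sign in all 14, but most of these alternatives could not have changed it. Filters, limma trend and the replicate block leave a fold change as it is. Leaving out 1 array cannot turn the sign of a gene whose groups do not overlap, as in these 6. The counts are small and depend on the array set. Without the filter on dim genes, 598 genes passed, with 3 cytosolic and 0 mitochondrial members lower, 3 member probe sets and a mitochondrial median of -0.032. Of all 19775 genes in that fit 1.67% were called lower, against 9.97% in the main fit. The mean of all probe sets of a gene gave 0 mitochondrial members lower and quantile normalization gave 2, with 10.1% and 12.1% of all genes called lower. Over all genes tested, samples with the same replicate number did not deviate together (correlations of deviations -0.05, -0.01 and -0.05). Such a correlation over all genes cannot exclude a pairing, and the labels do not say whether the numbers pair the samples. With the replicate block, 904 genes, 1 cytosolic and 0 mitochondrial members and 2 member probe sets passed. With the ACTB covariate these were 24, 0, 0 and 0, and the cytosolic median was -0.28. The share of all genes called lower also fell, to 3.28% with the block and 0.107% with the covariate. Leaving out 1 array gave 562 to 2074 genes, 1 to 4 cytosolic and 0 to 1 mitochondrial members lower, 1 to 8 member probe sets, and medians of -0.24 to -0.18 (cytosolic) and -0.21 to -0.041 (mitochondrial). The ACTB difference ran from 0.31 to 0.57 and that of GAPDH from 0.08 to 0.11. The cause of these shifts was not tested.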

Other observations

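Probe sets that the annotation gives to a member together with a microRNA gene within it were outside the definition of the members, and were fitted with all 21667 bright probe sets of any annotation. QARS1, the glutamine enzyme, was read by 1 such probe set at 10.46, 10.54 and 10.45 after bevacizumab, against 10.68, 10.66 and 10.66 in controls. Its groups did not overlap, and its log2 fold change was -0.18 (limma adjusted p = 0.174). TARS2, the mitochondrial threonine enzyme, read 5.81, 5.88 and 5.81 after bevacizumab, against 6.16, 6.07 and 6.25 in controls (-0.33, limma adjusted p = 0.0607), again without overlap. MARS1, the methionine enzyme, had 2 bright probe sets with changes of -0.21 and -0.06 (limma adjusted p = 0.205 and 0.698) and overlapping groups.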
